A study of Mus musculus with 5 samples.

Results

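Binding of NEUROD2 was examined around 9 genes that mark the progenitors of the embryonic cortex: Pax6, Sox2, Emx1, Emx2, Lhx2, Eomes, Nes, Vim and Fabp7, among the 55413 genes annotated on mm10. Peaks of 3 NEUROD2 antibodies were taken when their midpoint lay inside the gene, defined as its transcript with the longest span, or within 50 kb of either end. This gave 114 peaks, which merged into 64 regions of the 53833 in the genome. The tissue was cerebral cortex of BALB/c mice at embryonic day 14.5 (E14.5), with embryos of several mothers combined for each ChIP-Seq experiment. Chromatin was precipitated with antibody 1, raised in mouse, and with antibodies 2 and 3, raised in rabbit, and 1 library was made from each. A GFP antibody of each host species gave the control libraries for peak calling, and antibodies 2 and 3 shared the rabbit control. All libraries came from the same tissue, strain and stage, so the data hold no contrast between conditions and no biological replicate of an antibody. The results are therefore descriptions without tests.

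Radial glia line the ventricle of the developing cortex and act as its neural stem cells. They give rise to intermediate progenitors, which divide in the subventricular zone and produce excitatory projection neurons. NEUROD2 is a basic helix-loop-helix transcription factor of the neurogenic differentiation family that is known for its role in differentiating excitatory neurons, and proteins of this class bind short DNA elements called E-boxes as dimers. Pax6, Sox2, Emx1, Emx2 and Lhx2 encode transcription factors of radial glia, Eomes (also called Tbr2) encodes the transcription factor that defines intermediate progenitors, and Nes, Vim and Fabp7 encode structural or lipid-binding proteins of radial glia. Peak lists hold no expression values, so the labelled tissue and the progenitor identity of these genes could not be checked against RNA here. The dissected cortex contains both progenitors and neurons, and the cells in which a site was bound cannot be told apart.

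For the 5 genes with regions of all 3 antibodies, 1 or 2 of these regions are shown by the 81 bp around 1 E-box each, for Emx1 and Eomes those with the highest summed scores. The other Eomes region with all 3 antibodies, at the start of the gene Golga4, is left out. The only region of Fabp7 and the only Pax6 region found with 2 antibodies are added. The E-box was defined as the hexamer CAGCTG, the hexamer CAGATG, its reverse complement, which reads CATCTG, or the hexamer CATATG, in each case followed by a G or a T on either strand. The match nearest to the midpoint of the region's narrowest peak was chosen. Sequences are the plus strand of mm10, written 5′ to 3′, and capitals mark every E-box with its following base. All 9 genes lie on the plus strand, and distances run from the transcription start site (TSS) to the middle of the region. The reference genome is of another strain than the BALB/c mice, so strain differences in these letters would not be seen.
Eomes, 22.7 kb upstream, chr9:118455713-118455793: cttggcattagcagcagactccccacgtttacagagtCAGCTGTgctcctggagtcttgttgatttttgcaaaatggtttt
Emx1, 19.3 kb downstream, chr6:85207031-85207111: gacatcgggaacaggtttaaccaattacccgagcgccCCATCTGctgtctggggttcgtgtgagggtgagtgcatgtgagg
Emx1, 31.7 kb downstream, chr6:85219236-85219316: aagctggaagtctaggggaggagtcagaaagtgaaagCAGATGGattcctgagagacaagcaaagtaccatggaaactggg
Lhx2, 56.2 kb downstream, chr2:38395353-38395433: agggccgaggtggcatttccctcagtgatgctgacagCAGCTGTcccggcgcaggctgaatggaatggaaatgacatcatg
Lhx2, 64.5 kb downstream, chr2:38404246-38404326: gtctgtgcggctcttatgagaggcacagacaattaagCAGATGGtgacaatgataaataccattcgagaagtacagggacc
Sox2, 23.6 kb upstream, chr3:34626813-34626893: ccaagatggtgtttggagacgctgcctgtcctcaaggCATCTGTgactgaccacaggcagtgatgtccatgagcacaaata
Sox2, 20.8 kb upstream, chr3:34629590-34629670: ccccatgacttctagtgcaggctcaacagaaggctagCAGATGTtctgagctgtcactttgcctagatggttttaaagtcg
Vim, 49.7 kb upstream, chr2:13524193-13524273: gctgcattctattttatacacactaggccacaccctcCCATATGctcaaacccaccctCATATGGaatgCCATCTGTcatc
Fabp7, at the TSS, chr10:57784767-57784847: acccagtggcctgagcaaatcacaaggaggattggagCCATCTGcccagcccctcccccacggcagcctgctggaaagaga
Pax6, 53.6 kb downstream, chr2:105722577-105722657: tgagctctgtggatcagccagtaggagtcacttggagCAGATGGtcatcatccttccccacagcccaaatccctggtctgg

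The E-boxes shown lay between 1 bp, in the Sox2 region 20.8 kb upstream, and 121 bp, in the Eomes region, from the midpoint of the narrowest peak. In the Eomes region at Golga4, which is not shown, the distance was 443 bp. Among the regions with at least 2 antibodies it reached 1364 bp, in the Emx2 region 11.9 kb downstream. Since the nearest match was chosen, short distances are favoured by the choice. The Vim region held 3 E-boxes within the 81 bp shown. A match is a description of the letters and does not show that NEUROD2 contacted them.

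Antibody 1 gave 64 peaks in the windows of the 9 genes, antibody 2 gave 38 and antibody 3 gave 12, a mean of 38 ± 26 (SD, n = 3 antibodies). The genome-wide lists held 51841, 35310 and 7470 peaks, so the 9 windows took 0.123%, 0.108% and 0.161% of them. Antibody 1 had the most peaks and antibody 3 the fewest, here as in the genome. Read counts of the libraries were not used here, so the depth behind a value is given as peak counts. Of the 64 regions, 34 held peaks of at least 2 antibodies, which is 53.1% (95% Wilson interval 41.1 to 64.8%, counting error only), against 59.9% of all merged regions. All 3 antibodies had a peak in 11 regions (17.2%), against 13.3% of all merged regions. Each of the 34 regions contained a peak of antibody 1 and a peak of antibody 2, and 27 of the 30 remaining regions were found by antibody 1 alone.

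The score of a peak is the −log10 p-value from MACS multiplied by 10, with a minimum of 50 in the lists, and it was not scaled between libraries. A region was given the highest score of each antibody in it. In the 11 regions with all 3 antibodies the score of antibody 1 ranged from 249.24 to 3100 with a median of 1681. The 23 regions with 2 antibodies had antibody 1 scores from 65.36 to 853.28 with a median of 268.94. The 27 regions of antibody 1 alone lay between 51.34 and 253.05 with a median of 74.95. The 3 classes overlapped, and the regions of a single antibody had the lowest median. Antibody 1 scored higher than antibody 2 in 30 of the 34 shared regions, with a median ratio of 1.70, and the ratio was 1.84 over all 32210 regions of the genome with both. Pearson's r of the log10 scores of antibodies 1 and 2 was 0.888 over the 34 regions and 0.885 over the 32210. These are correlations across regions, which share libraries and are not replicates.

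At least 1 region with 2 or more antibodies lay in the window of 8 of the 9 genes, Nes being the exception, against 67.6% of 21938 protein-coding genes. A region with all 3 antibodies lay in the window of 5 genes, Emx1, Sox2, Lhx2, Eomes and Vim, against 26.7% of protein-coding genes. The regions were unevenly shared among the genes. Emx1, Sox2 and Lhx2 together held 25 of the 34 regions with at least 2 antibodies (73.5%). Sox2 had 10, Emx1 9, Lhx2 6, Eomes 3, Emx2 and Vim 2 each, and Pax6 and Fabp7 1 each. Genes that follow each other in this order differ by few regions, and none of these differences was tested. By this count 97.0% of protein-coding genes had fewer regions than Sox2, 96.1% fewer than Emx1, 90.05% fewer than Lhx2 and 67.0% fewer than Eomes. The share was 51.7% for Emx2 and for Vim, 32.4% for Pax6 and for Fabp7, and 0% for Nes. Densities per 100 kb of window rank short genes higher, since the flanks are of fixed length.

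**Figure D1:**
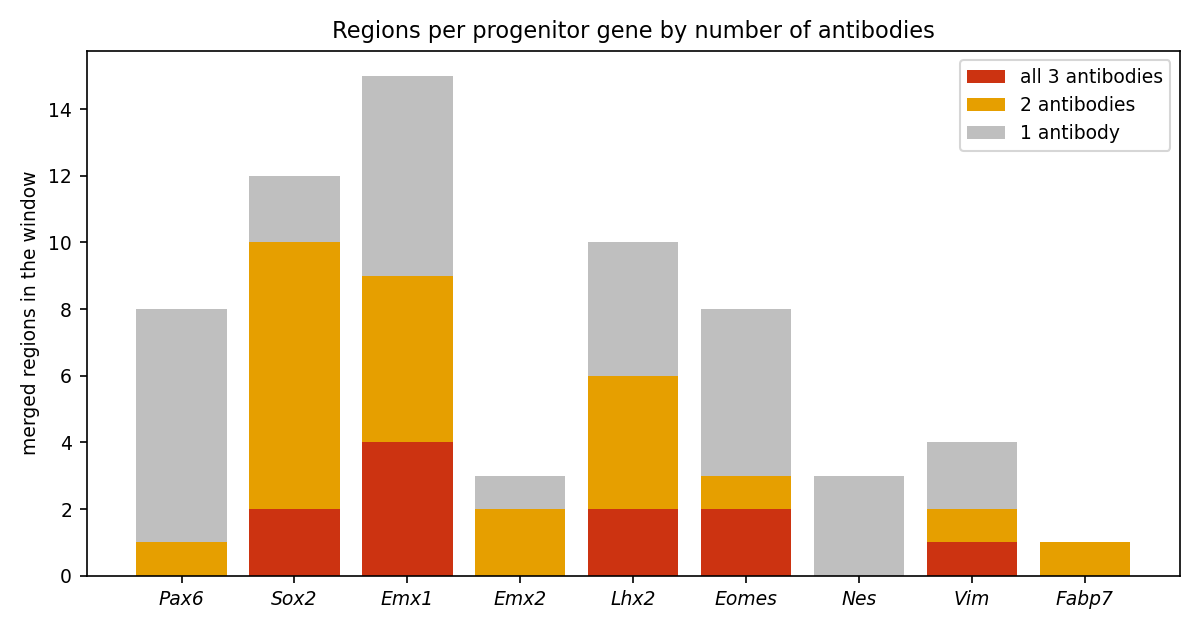
Number of merged regions (vertical axis) in the window of each of the 9 genes (horizontal axis), with bar segments for regions found with all 3, with 2 and with 1 antibody. Emx1 has 15 regions, 4 of them with all 3 antibodies, while the 3 regions of Nes and 7 of the 8 regions of Pax6 were found with 1 antibody.

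Sox2, a transcription factor that maintains neural stem cells, lies at chr3:34650405-34652461 as a gene of 1 exon inside an intron of the long noncoding RNA gene Sox2ot. Its window held 13 peaks of antibody 1, 11 of antibody 2 and 2 of antibody 3. The 10 regions with at least 2 antibodies corresponded to 9.80 per 100 kb, and 99.7% of protein-coding genes had a lower density. The region with the highest summed score lay 31.3 kb upstream (chr3:34618688-34619521), with a score of 708.51 for antibody 1 and 407.22 for antibody 2 and no peak of antibody 3. The regions with all 3 antibodies lay 23.6 kb upstream (465.31, 512.81 and 71.90 for antibodies 1, 2 and 3) and 20.8 kb upstream (377.52, 268.90 and 81.75). Both were narrow, with widths of 755 and 616 bp, and each held 3 E-boxes. None of the regions around Sox2 reached the scores of the strongest regions of Emx1, Eomes, Lhx2 or Vim. On the other side of the gene, a region 9.1 kb downstream had scores of 633.40 and 307.49 for antibodies 1 and 2. The region at the Sox2 TSS was 2910 bp wide and had scores of 335.37 for antibody 1 and 112.28 for antibody 2.

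Emx1, a homeobox gene of dorsal telencephalic progenitors, lies at chr6:85187438-85204358 and had the most regions with all 3 antibodies. Antibody 1 had 15 peaks in its window, antibody 2 had 9 and antibody 3 had 4, and the 9 regions with at least 2 antibodies made 7.70 per 100 kb, above the density of 99.1% of protein-coding genes. The strongest region lay 19.3 kb downstream of the TSS, beyond the 3′ end of Emx1 (chr6:85205828-85207730). It scored 3100 with antibody 1, 1856 with antibody 2 and 387.66 with antibody 3, and 98.6%, 98.6% and 94.5% of each antibody's peaks scored lower. Among all antibody 1 peaks, 661 were tied at 3100, so the order at that value is unknown. The other regions with all 3 antibodies lay farther downstream, inside introns of the neighbouring gene Sfxn5. At 31.7 kb the scores were 2837, 1176 and 191.09 for antibodies 1, 2 and 3, and this region of 3185 bp held 9 E-boxes. At 44.5 kb they were 1095, 650.55 and 121.53, and at 50.4 kb they were 1681, 478.28 and 53.78. Between these lay a region 36.8 kb downstream with 853.28 and 344.94 for antibodies 1 and 2 and none for antibody 3. All 4 regions with the third antibody were thus downstream of the gene, as were 6 of the 9 regions with at least 2 antibodies. The region at the Emx1 TSS was 2744 bp wide, and its score was 593.37 with antibody 1 and 111.57 with antibody 2.

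Lhx2, a LIM homeobox gene needed for cortical identity, lies at chr2:38339281-38369199. Its window held 10 peaks of antibody 1, 7 of antibody 2 and 3 of antibody 3, and its 6 regions with at least 2 antibodies made 4.62 per 100 kb, a density above that of 93.8% of protein-coding genes. The region with the highest summed score lay 64.5 kb downstream of the TSS (chr2:38402749-38404740), with 2671 for antibody 1, 568.10 for antibody 2 and 100.92 for antibody 3. In the region 56.2 kb downstream (chr2:38394498-38396417) antibodies 1 and 2 had similar scores, 922.96 and 875.50, and antibody 3 had 190.55. This region held 9 E-boxes in 1920 bp. In the region 64.5 kb downstream, 1 antibody 1 peak of 1825 bp overlapped 2 peaks of antibody 2 (499.89 and 568.10) and 2 of antibody 3 (75.09 and 100.92). In intron 1 of the longest Lhx2 transcript there were regions 9.2 kb (534.52 and 184.15 for antibodies 1 and 2) and 12 kb (713.28 and 206.54) from its TSS, neither with antibody 3. The midpoint of the latter lay 501 bp from the start of a shorter Lhx2 transcript, so Lhx2 had regions at 2 of its annotated starts. At the TSS of the longest transcript the scores were lower, 100.59 for antibody 1 and 64.22 for antibody 2.

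Pax6, the paired-box transcription factor of radial glia, and Emx2, the paralogue of Emx1, had 1 and 2 regions with at least 2 antibodies. In the Pax6 window (gene at chr2:105668900-105697364) antibody 1 had 8 peaks, antibody 2 had 1 and antibody 3 had none. The 7 regions of antibody 1 alone had scores from 53.20 to 130.81, and 4 of them lay in introns 1, 3, 6 and 7 of Pax6. The only region with 2 antibodies lay 53.6 kb downstream of the TSS in intron 9 of Elp4 (chr2:105722286-105722796), with low scores of 65.36 and 73.19. Pax6 had no region within 1 kb of the TSS of its longest transcript, the only such gene of the 9. When the starts of its shorter transcripts were included, 3 of its regions of antibody 1 alone lay within 1 kb of a start. Its density of 0.778 per 100 kb was above that of 40.3% of protein-coding genes.

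The Emx2 window (gene at chr19:59458372-59465357) had 4 peaks of antibody 1 and 2 of antibody 2. Its shared regions lay 11.9 kb downstream, with 184.04 and 144.25 for antibodies 1 and 2, and 34.5 kb upstream, with 72.27 and 99.88. The region at the Emx2 TSS, which also covers the start of the antisense gene Emx2os, was found with antibody 1 alone at 235.48. The highest antibody 1 score was thus 235.48 around Emx2 and 3100 around Emx1. The density of shared regions at Emx2, 1.87 per 100 kb, was above that of 67.8% of protein-coding genes.

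Eomes, the T-box transcription factor of intermediate progenitors, lies at chr9:118478344-118486132. Antibody 1 had 6 peaks in its window, antibody 2 had 5 and antibody 3 had 2. A region 22.7 kb upstream (chr9:118455089-118456193) had the highest antibody 2 and antibody 3 scores around any of the 9 genes. The values were 2857 for antibody 1, 2169 for antibody 2 and 572.96 for antibody 3, and 98.2%, 99.1% and 97.7% of each antibody's peaks scored lower. It was thus near the top of all 3 lists. A second region with all 3 antibodies lay 28.1 kb downstream of the Eomes TSS but at the TSS of Golga4, a gene for a Golgi protein, with 249.24, 347.45 and 50.01. The remaining shared region lay 1.5 kb upstream of the Eomes TSS with 182.02 and 142.57 for antibodies 1 and 2. At the TSS itself antibody 1 alone had a peak, at 74.95. The 3 shared regions made 2.78 per 100 kb, above 80.8% of protein-coding genes.

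Vim, an intermediate filament protein of radial glia, lies at chr2:13573952-13582826 and had 4 peaks of antibody 1, 2 of antibody 2 and 1 of antibody 3. Its strongest region lay 49.7 kb upstream in intron 3 of Trdmt1, a tRNA methyltransferase gene (chr2:13523734-13524694), with 2106, 904.62 and 196.70 for antibodies 1, 2 and 3. This region lies just inside the 50 kb limit, and the closest TSS was that of Trdmt1, at 20454 bp. The second region, 46.6 kb upstream, had 187.92 and 57.84 for antibodies 1 and 2. At the Vim TSS antibody 1 alone had a peak, with a score of 207.72. The density at Vim, 1.84 shared regions per 100 kb, was above that of 66.8% of protein-coding genes.

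Nes, which encodes the intermediate filament nestin (chr3:87971093-87980451), had 3 peaks of antibody 1 and none of the other antibodies. The highest, 253.05, lay 0.8 kb downstream of its TSS. This was also the highest score among the regions found with 1 antibody. Fabp7, which encodes brain lipid-binding protein (chr10:57784881-57788450), had a single region, which lay at its TSS (chr10:57784483-57785237). Its scores were 454.95 for antibody 1 and 414.59 for antibody 2, without a peak of antibody 3. Fabp7 had the highest antibody 2 score of all TSS regions here, and the rest of its window of 103.57 kb held no peak. This made 0.966 per 100 kb, above 51.4% of protein-coding genes.

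**Figure D2:**
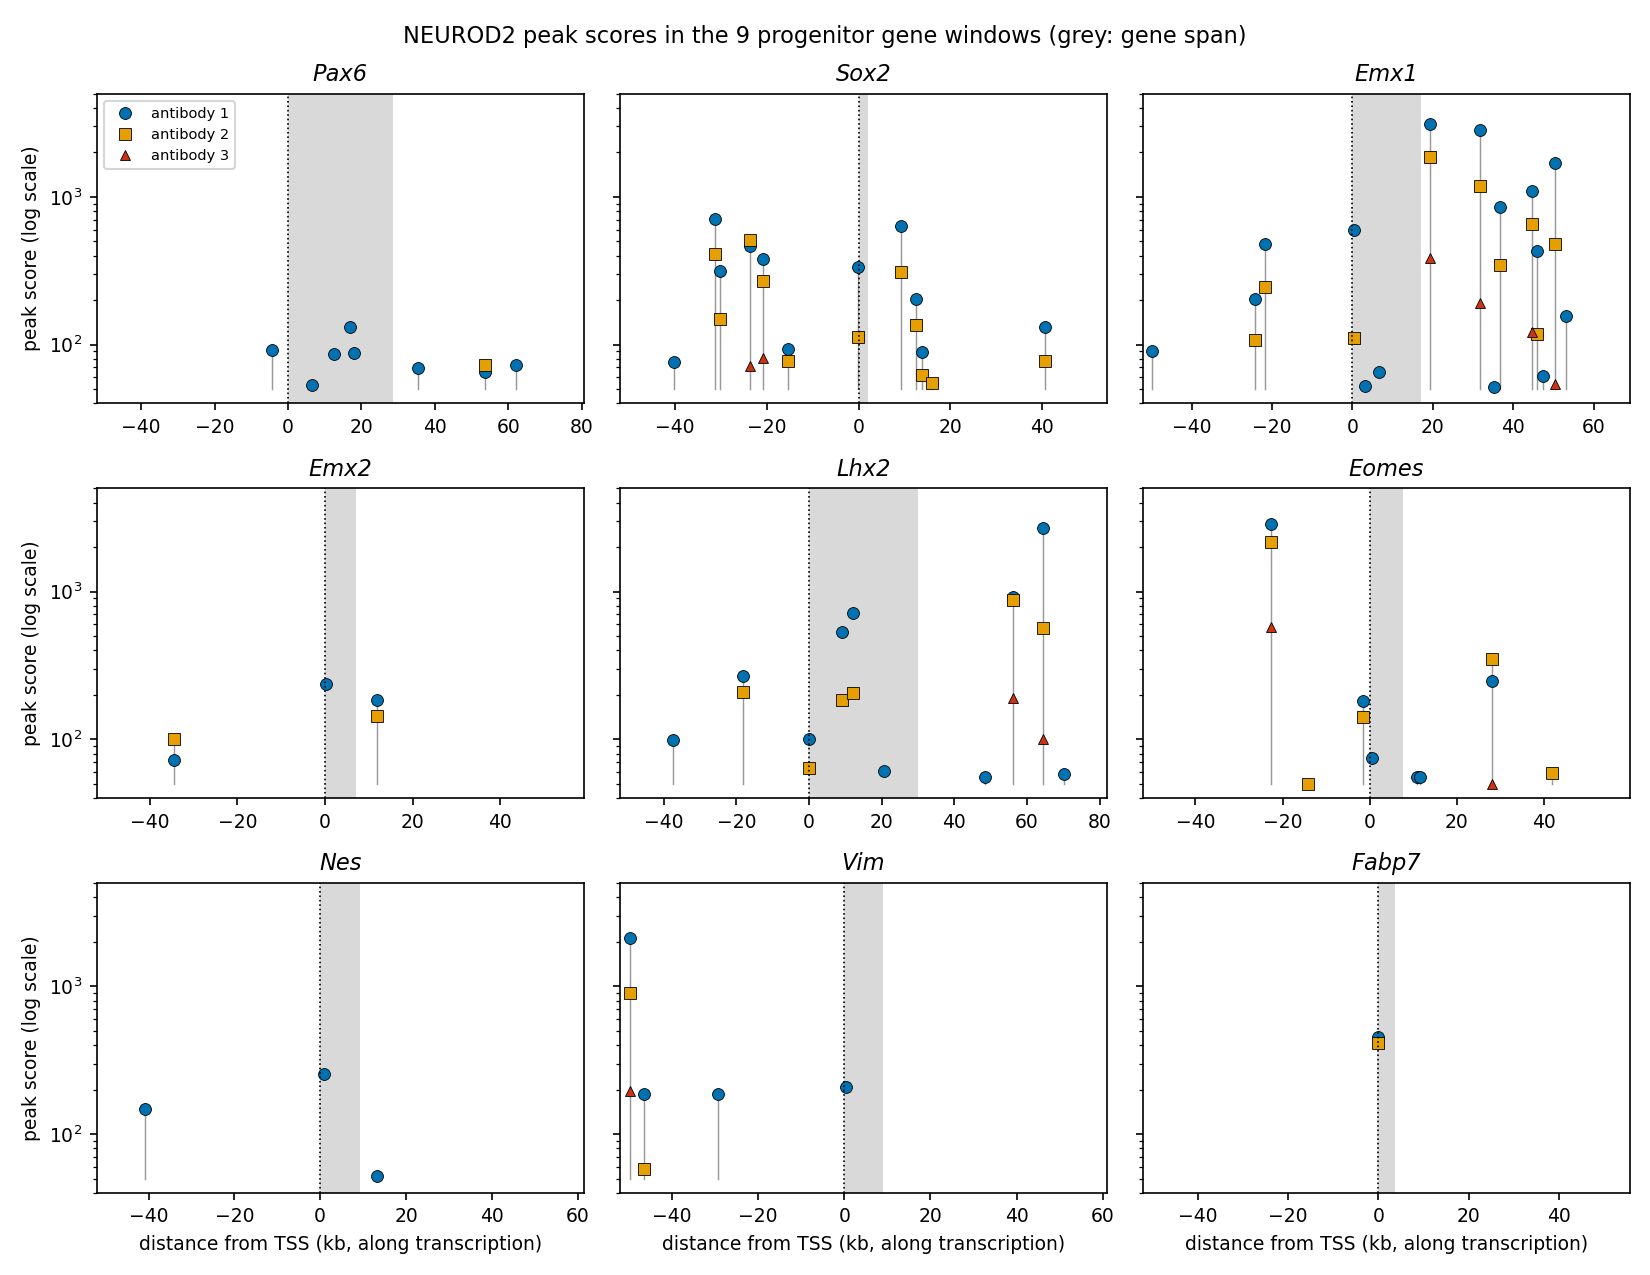
Peak score (vertical axis, log scale) against the distance from the TSS in kb along the direction of transcription (horizontal axis) for each region in the 9 windows, with circles for antibody 1, squares for antibody 2 and triangles for antibody 3. The grey band is the gene and the dotted line its TSS. The highest antibody 1 scores lie away from the TSS, at 22.7 kb upstream of Eomes, 49.7 kb upstream of Vim, 19.3 and 31.7 kb downstream of Emx1 and 64.5 kb downstream of Lhx2.

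A region of any antibody within 1 kb of the TSS of the longest transcript was found for 8 of the 9 genes, against 37.2% of protein-coding genes. With at least 2 antibodies this held for 4 genes, Sox2, Emx1, Lhx2 and Fabp7, against 20.8%. No gene had a TSS region with all 3 antibodies, against 1.61% of protein-coding genes. The antibody 1 scores of the 8 TSS regions ranged from 74.95 to 593.37 with a median of 244.27. Most TSS regions were wide and rich in GC. Their median width was 1858 bp against 754.5 bp for the other 56 regions, and the median GC content of their central 200 bp was 70.0% against 52.8%. The central 200 bp contained an E-box in 1 of the 8 TSS regions, that of Fabp7, and in 31 of the other 56 (55.4%). Among regions with at least 2 antibodies this was 1 of 4 (25%) at the TSS and 16 of 30 (53.3%) elsewhere, and these held 0.856 and 2.14 E-boxes per kb. Across the genome, regions with at least 2 antibodies that lay within 1 kb of any TSS held all 3 antibodies in 10.2% of cases and an E-box in 27.2%, against 24.4% and 65.7% of those farther away. That split uses the closest TSS of any gene, noncoding ones included, so it is not like for like with the one above. By it the Eomes region at the TSS of Golga4, with all 3 antibodies, would count as a TSS region. So would the Lhx2 region 9.2 kb downstream, with a central E-box, and the Sox2 region 13.8 kb downstream, without one. The Fabp7 TSS region was an exception in width, with 755 bp, and those of Fabp7 and Sox2 in GC content, with 51.5% and 51%. The part of GC content and width in the scores was not tested.

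**Figure D3:**
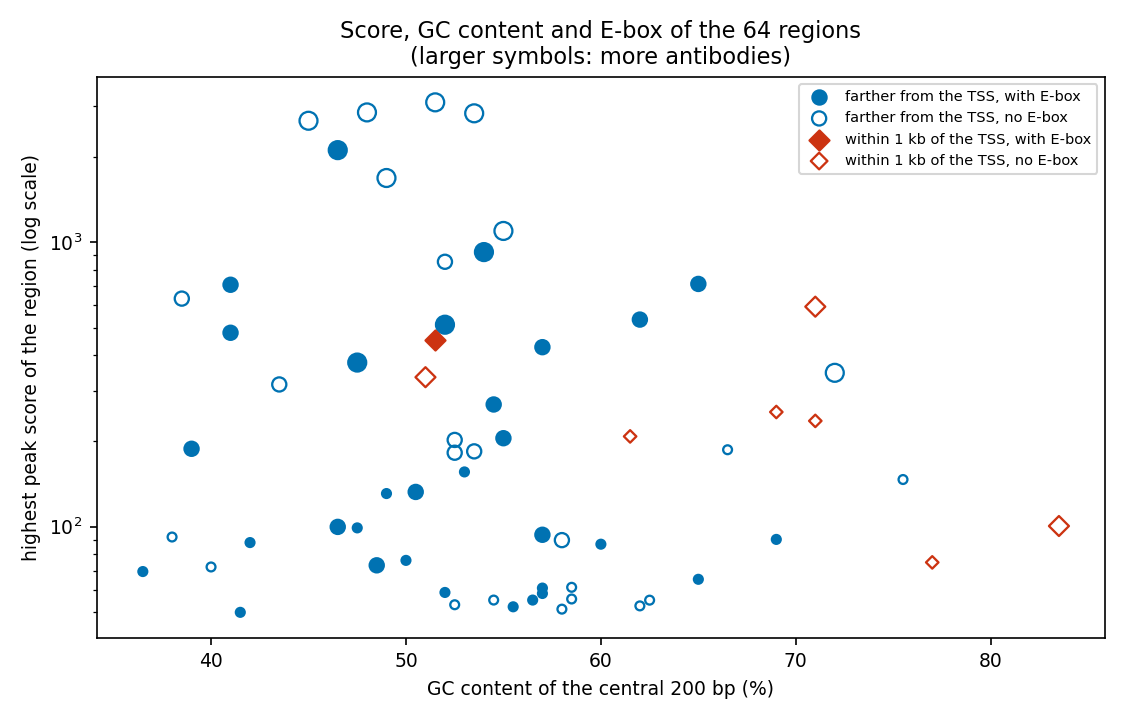
Highest peak score of each of the 64 regions (vertical axis, log scale) against the GC content of its central 200 bp in percent (horizontal axis), with diamonds for the 8 regions within 1 kb of the TSS and circles for the other 56. Filled symbols have an E-box in the central 200 bp and larger symbols have more antibodies, and 1 of the 8 diamonds is filled.

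Among the 34 regions with at least 2 antibodies, 27 lay more than 10 kb from the TSS of the gene, 3 between 1 and 10 kb and 4 within 1 kb. Their midpoints were upstream of the gene in 15 cases, downstream in 15, in an intron in 2 and in an exon in 2. The gene itself had the closest TSS among protein-coding genes for 31 of the 34 (91.2%), the exceptions being the Trdmt1 and Golga4 regions above. When noncoding genes were included, the gene had the closest TSS for 12 (35.3%). The other closest starts were those of Golga4, Trdmt1 and Emx2os, of the pseudogene Spr-ps1 at Emx1, and of unnamed models such as Gm42693, RF01953 and Gm42205 at Sox2, Gm27197 and Gm13589 at Lhx2, Gm22479 at Eomes, Gm33756 at Emx2 and Gm13954 at Pax6. Proximity does not show which gene a region acts on.

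Of the 34 regions, 17 contained an E-box in their central 200 bp (50%, 95% Wilson interval 34.1 to 65.9%, counting error only), against 59.6% of the 32261 such regions in the genome. The 34 regions were wider, with a median of 1293 bp against 865 bp, so the central 200 bp covered less of them. In windows of 200 bp placed 1000 bp beyond the left and right ends, 11 (32.4%) and 6 (17.6%) of the 34 held an E-box. Some of these windows fell in neighbouring regions and are no clean background. The left window of the Emx1 region 45.8 kb downstream, which held an E-box, lay inside the region 44.5 kb downstream. The share of regions with an E-box changed with where the search was made. Within 200 bp around the midpoint of the highest peak it was 52.9% here and 60.2% in the genome. Within 200 bp around the midpoint of the narrowest peak, a setting added after the widths of the regions had been seen, the share was 70.6% here and 63.1% in the genome. Of the 11 regions with all 3 antibodies, 4 (36.4%) held an E-box in the centre. The same share over the genome was not computed, so this value cannot be called low or high. All 11 held an E-box somewhere in the region, at 2.55 per kb, against 96.1% of the 7160 regions of the genome with all 3 antibodies, at 2.60 per kb. These 11 regions were wider, with a median of 1592 bp against 1071 bp. The 34 regions contained 92 E-box positions, or 1.92 per kb against 2.30 per kb in all regions with at least 2 antibodies. CAGATG and its reverse complement CATCTG, counted together, had 50 sites (1.04 per kb, against 1.22 in all such regions). The palindromes, each a single hexamer, had 31 sites for CAGCTG (0.647 against 0.780) and 11 for CATATG (0.230 against 0.302). Since the first form pools a pair of hexamers, its count is not comparable with those of the palindromes. In the RefSeq promoters of GRCm38.p6, from 250 bases before to 50 after the start, the E-box was present for 2 of the 9 genes, Fabp7 and a second entry of Lhx2, and in 26.3% of 32851 promoters.

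The density of regions with at least 2 antibodies had a median of 1.87 per 100 kb over the 9 genes and of 0.95 over all protein-coding genes, and 7 of the 9 genes lay above the latter. Of these, Fabp7 lay closest to it, at 0.966 with 1 region, and 1 was also the median number of regions per protein-coding gene. Without antibody 1 the median densities were 0.918 and 0, and likewise without antibody 2. With peaks of a score of at least 100 they were 0.966 and 0.62. Other genes of the same cell types and of their progeny were counted in the same way. Of 18 other radial glia genes, 17 had a region with at least 2 antibodies and 6 had one with all 3, with a median density of 2.23 per 100 kb. Dach1 had 11 regions, Gli3 8 and Notch1 6, and Nr2e1 had none. Dach1 and Gli3 have long windows, of 483 and 366 kb, and their densities were 2.28 and 2.19 per 100 kb. Notch1 had 4.11 per 100 kb in a window of 145.9 kb. All 10 other intermediate progenitor genes had a region with at least 2 antibodies, and 9 had one with all 3. Their median was 6.17 per 100 kb, led in number by Sstr2 with 12, Btg2 with 11 and Mfng with 10. The 12 projection neuron genes all had such a region, 10 had one with all 3 antibodies, and the median was 4.8 per 100 kb. Rbfox3 had 25 regions, Cux2 21 and Cux1 15, but these genes differ in length. Of the 5 interneuron genes, 4 had a region with at least 2 antibodies, against 67.6% of protein-coding genes, and the median was 0.978 per 100 kb. Calb2 and Npy had 2 regions each, Gad1 and Gsx2 had 1 each and Dlx2 had none. The study had used these as genes not called targets from these libraries, so they are no independent reference. By separate ChIP-qPCR, a different measure, it reported no significant enrichment at 4 of the 5 and a slight one at Gsx2. The 9 genes ranged from Nes at 0 to Sox2 at 9.80, overlapping every other list, and no difference between lists was tested.

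**Figure D4:**
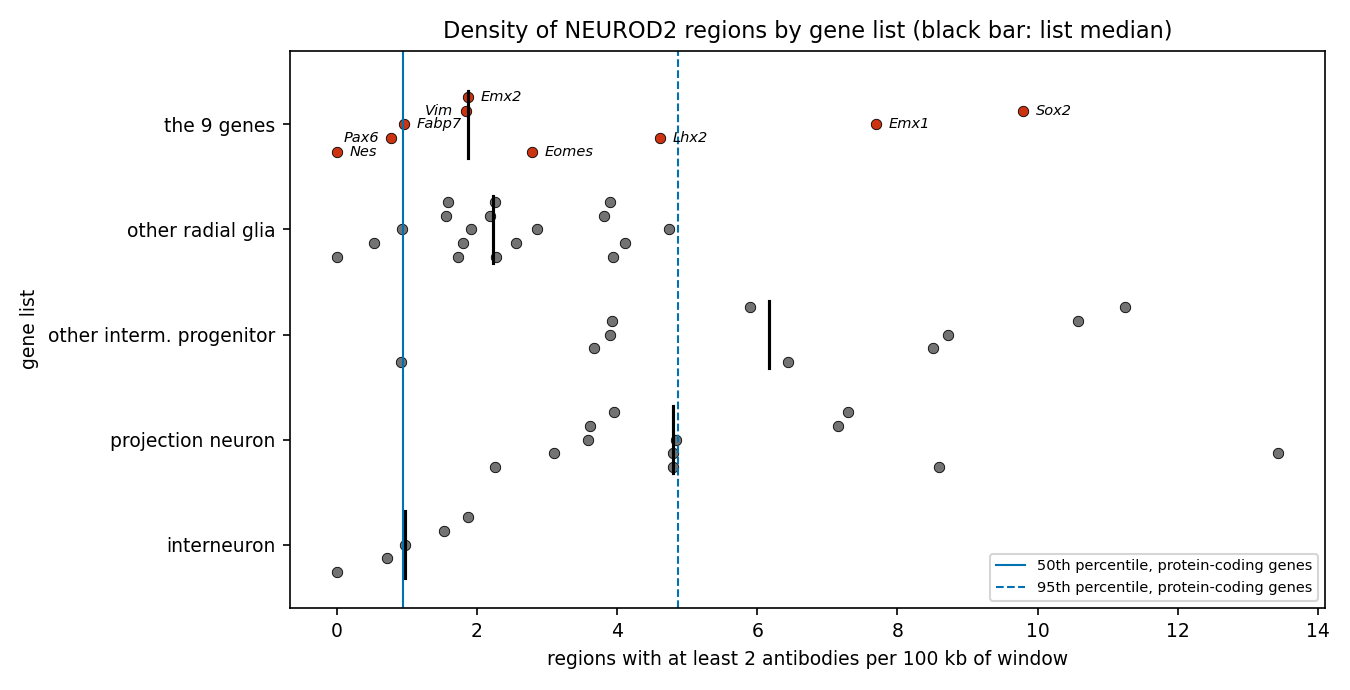
Regions with at least 2 antibodies per 100 kb of window (horizontal axis) for each gene of the 5 lists (vertical axis, points spread for legibility), with a black bar for the list median and vertical lines for the median (0.95) and the 95th percentile (4.87) of protein-coding genes. Sox2 and Emx1 lie beyond the 95th percentile, Lhx2 just below it, and Nes at 0.

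The limit of 50 kb decided a few regions. Just inside it were the Vim regions 49.7 and 46.6 kb from the gene and a region of antibody 1 alone 49.8 kb from Emx1, at the TSS of Spr, with a score of 90.26. Just outside it, Pax6 had 3 regions with 2 antibodies upstream, at 52.4 kb (55.66 and 59.28), 56.6 kb (210.78 and 153.62) and 62.1 kb (166.10 and 107.11). All 3 had Pax6 as the closest protein-coding TSS. Emx1 had further regions with 2 antibodies 54.9 kb (320.21 and 228.21) and 60.9 kb (250.06 and 154.26) beyond its end.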

How the data were processed

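NEUROD2 ChIP-Seq peak lists of 3 antibodies from E14.5 BALB/c cortex were used. The authors mapped reads to mm10 with Bowtie, also named in the submitters' processing notes, removed duplicates and reads mapping to several places, and ran MACS on each antibody with the matching mouse or rabbit GFP library as control. The deposited score is the −log10 p-value from MACS multiplied by 10, and it is not scaled between libraries. The GFP libraries entered only as these controls. Here peaks overlapping by at least 1 bp were merged, and regions were placed by their midpoint on GENCODE M21 transcripts. E-boxes were searched on both strands, palindromes counting once. Calculations used samtools 1.23.1 and Python 3.11.15 with pysam 0.24.0, pandas 2.3.3, numpy 2.4.6, scipy 1.17.1 and matplotlib 3.10.9, and were tested on simulated data. Genes and lists were chosen with earlier results of these data known. Named regions were, for each gene, the one with the highest summed score, those within 1 kb of the TSS, and, chosen after their values were seen, those with all 3 antibodies and further examples. Neighbouring genes were named where theirs was the closest TSS to a shared region, at most 3 per gene, with others that contain a named region. Of each other list, the 3 genes with most regions, ties included, and those with 0 were named. Alternatives were each antibody left out, a score of at least 100, flanks of 10 and 100 kb, an overlap of 50%, and other E-box and TSS definitions.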

Additional observations from a re-analysis of the deposited data

How the results depend on the processing

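Of 53 counts and shares under alternative settings, 26 moved and 27 did not, a count by more than 1.5 times and a share by at least 1 SD over the antibodies. That SD was taken from the peaks of each antibody alone, which is not the spread of shares over regions with at least 2 antibodies. For the closest-TSS share it was only 0.90 percentage points, so small shifts were counted as moved. The SD of the median density exceeded the density itself, so its values are given without such a verdict. Leaving out each antibody in turn gave 50 to 102 peaks, 38 to 64 regions, 11 to 34 regions with at least 2 antibodies, 0 to 4 such regions at a TSS, an E-box share of 27.3 to 66.7% and a share with the gene as closest TSS of 33.3 to 36.4%. Regions with at least 2 antibodies numbered 12 without antibody 1, 11 without antibody 2 and 34 without antibody 3, and the TSS regions fell to 0 without antibody 1 or antibody 2, so these counts rest on that pair. The median density, 1.87 with all antibodies, was 0.918 without antibody 1 or 2. With a score of at least 100 there were 72 peaks, 37 regions, 7 regions with all 3 antibodies and a closest-TSS share of 40.7%, and the density was 0.966. With flanks of 10 kb there were 40 peaks, 27 regions, 10 with at least 2 antibodies and 1 with all 3, an E-box share of 30.0%, a closest-TSS share of 60.0% and a density of 3.71, and with flanks of 100 kb the closest-TSS share was 26.0%. It was 91.2% among protein-coding genes. Counting the starts of all transcripts gave 5 TSS regions with at least 2 antibodies in place of 4. The E-box share was 97.1% in the whole region and 88.2% for any CANNTG, against 90.3% and 83.7% of all regions. In the setting chosen after seeing the data it was 70.6% around the narrowest peak, against 63.1%. For regions with all 3 antibodies the E-box share in the centre was 36.4%, and the genome share for this setting was not computed. A region with all 3 antibodies is not defined when an antibody is left out. No paired analysis was possible because there is no test and the GFP libraries entered only as controls of peak calling. Antibody 3 had 12 peaks around these genes, so counts with all 3 antibodies rest on few peaks.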

Other observations

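Several regions in the windows lay at the start of a neighbouring gene rather than near the progenitor gene. Antibody 1 alone had a peak at the TSS of Spr, a sepiapterin reductase gene in the Emx1 window, with a score of 90.26. It also had one at the TSS of Isg20l2 in the Nes window, at 146.54, and one at the TSS of Trdmt1 in the Vim window, at 186.46. The region at the TSS of Golga4 in the Eomes window held all 3 antibodies, although antibody 3 scored 50.01 there, at the minimum of its list. The central 200 bp of these regions had GC contents of 69%, 75.5%, 66.5% and 72% in this order.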
